A study of Mus musculus with 6 samples.

Results

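The genes of class I antigen presentation were followed in soleus, a postural muscle with many slow fibres, of wild-type male mice and of male mice lacking estrogen receptor beta. The 8 genes are the class I heavy chains H2-D1 and H2-K1, their shared light chain B2m, the peptide transporter subunits Tap1 and Tap2, the loading factor Tapbp, and the immunoproteasome subunits Psmb8 and Psmb9. They were taken by name: each probe set whose array annotation gave 1 of these symbols and no other was a member, which gave 15 of the 12488 probe sets on the array, and each of the 8 genes had at least 1. A further 3 probe sets that the annotation assigned to a member together with other class I genes were left out.

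In almost all nucleated cells, proteasomes cut cytosolic proteins into peptides, the Tap1 and Tap2 transporter carries the peptides into the endoplasmic reticulum, and tapasin, the product of Tapbp, holds the empty class I molecule at the transporter until it is loaded. The loaded heavy chain and B2m are shown at the cell surface to CD8 T cells. Interferons raise the whole set, and Psmb8 and Psmb9 then replace catalytic subunits of the standard proteasome. Skeletal muscle fibres are known for showing little class I when healthy, while endothelial and immune cells of the same tissue carry more.

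Affymetrix mouse arrays were hybridised with total RNA, 1 per sample: 3 wild-type C57BL/6 samples and 3 samples of knockout mice (BERKO), all from males. Age, the strain of the knockout and whether each sample was 1 animal are not stated in the labels, so the p-values measure the spread among these samples. Class I heavy chains differ between mouse strains and are close in sequence to each other, and 5 of the 6 heavy chain probe sets are of the kind that Affymetrix marks as shared within a gene family ("_f_at"), so a reading named H2-D1 or H2-K1 may hold signal of other class I genes, and a difference of genotype and one of strain cannot be told apart. Values are the authors' scaled signal intensities, which have meaning only within a probe set, so no member is ranked against another. In bulk tissue, fewer cells of a type and less RNA per cell cannot be told apart.

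All 11 skeletal muscle markers on the array that were looked for (such as Mb, Myl3 and Acta1) passed the filter on low values, a signal above 39.4 (the median over the whole table) on no fewer than 3 arrays. The probe set of Esr2, the deleted gene, read 1.3 to 3.2 in wild type and 3.9 to 8.4 in the knockout. With 5 of its 6 readings at or below the floor of 7.8 to which low values were set, the labels could not be checked by it. The sample titles begin alike in 4 arrays, called the larger title set here, and differently in the other 2, which are replicate 2 of each group. The labels do not say what the beginning stands for.

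The start regions of the heavy chains are shown first because these genes share a long stretch of sequence there. Each line holds the 250 bases before the start of the gene, 5′ to 3′ on the strand of the gene, from RefSeq on GRCm38.p6, whose table had a window for 7 of the 8 members (Tap2 was missing). Capitals in H2-K1 and H2-D1 mark GGGGATTCCCC, the palindrome of the class I enhancer that NF-kappa-B proteins are known to bind, and AGTTTCACTTCT, the element beside it known for its interferon response. Capitals in B2m mark GAAA repeated after any 2 bases, a general form of the interferon-stimulated response element.
H2-K1 (chr17:34000348-34000597, minus strand): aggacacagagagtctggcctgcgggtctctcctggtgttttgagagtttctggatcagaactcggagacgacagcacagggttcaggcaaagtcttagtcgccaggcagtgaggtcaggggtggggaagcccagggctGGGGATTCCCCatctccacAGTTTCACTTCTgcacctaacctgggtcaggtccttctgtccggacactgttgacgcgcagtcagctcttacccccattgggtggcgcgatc
H2-D1 (chr17:35262844-35263093, plus strand): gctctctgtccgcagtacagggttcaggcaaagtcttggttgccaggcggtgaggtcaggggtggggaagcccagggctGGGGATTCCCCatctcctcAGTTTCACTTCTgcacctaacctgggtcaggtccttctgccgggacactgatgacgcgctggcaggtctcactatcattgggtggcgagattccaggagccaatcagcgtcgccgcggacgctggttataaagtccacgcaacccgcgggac
B2m (chr2:122147437-122147686, plus strand): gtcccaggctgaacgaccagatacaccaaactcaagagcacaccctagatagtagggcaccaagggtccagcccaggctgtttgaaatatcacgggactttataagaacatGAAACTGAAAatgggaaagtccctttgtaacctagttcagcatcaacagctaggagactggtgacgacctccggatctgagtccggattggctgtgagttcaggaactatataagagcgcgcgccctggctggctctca

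In these windows the palindrome began 111 bases before the start of H2-K1 and 171 before that of H2-D1, and the interferon element 92 and 152 bases before. In the best local alignment, 161 of 177 positions (91%) of these windows were identical, with 47 identical bases in the longest run. The letters of both elements were chosen after reading these windows. Searched on both strands, GGGGATTCCCC stood in 10 (0.0304%) and AGTTTCACTTCT in 9 (0.0274%) of the 32851 start windows in the table, and 4 windows (0.0122%) held both. Those 4 belonged to H2-K1, which has 2 windows, H2-D1 and H2-Q6, another class I gene. GAAA repeated after any 2 bases stood 139 bases before the start of B2m and in 2.98% of all windows. TTC and GAA set 3 bases apart, the form of the interferon-gamma activated site, stood 97 bases before that of Psmb8 and in 7.02% of all windows. A match describes the letters, not a bound site, and none of the 4 motifs was matched in the windows of Tap1, Psmb9 and Tapbp.

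Tap1 and Psmb9 are neighbours that are read away from each other from a common start region. Their 250-base windows overlapped by 225 bases on opposite strands. The shared stretch is given once, as the window of Tap1, with no capitals because no motif was matched.
Tap1 (chr17:34187306-34187555, plus strand): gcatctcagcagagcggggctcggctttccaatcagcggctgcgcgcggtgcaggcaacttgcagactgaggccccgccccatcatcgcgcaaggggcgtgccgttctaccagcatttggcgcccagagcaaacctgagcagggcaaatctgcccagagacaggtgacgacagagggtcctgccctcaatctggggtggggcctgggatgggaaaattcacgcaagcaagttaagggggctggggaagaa

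Of the 15 member probe sets, 11 passed the filter on low values and were tested between the groups. These stand for 6 genes: H2-D1, H2-K1, B2m, Tap1, Tapbp and Psmb8. The single probe sets of Tap2 and Psmb9, 1 of the 3 of H2-D1 and 1 of the 2 of Tap1 did not pass and are given by their readings. In limma none of the 11 reached an adjusted p under 0.05 (lowest adjusted p 0.923). Over all 6369 probe sets tested, 0 passed (0%), while 334 (5.24%) had an unadjusted p under 0.05. Among the members 1 of 11 did, a probe set of H2-D1.

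**Figure D1:**
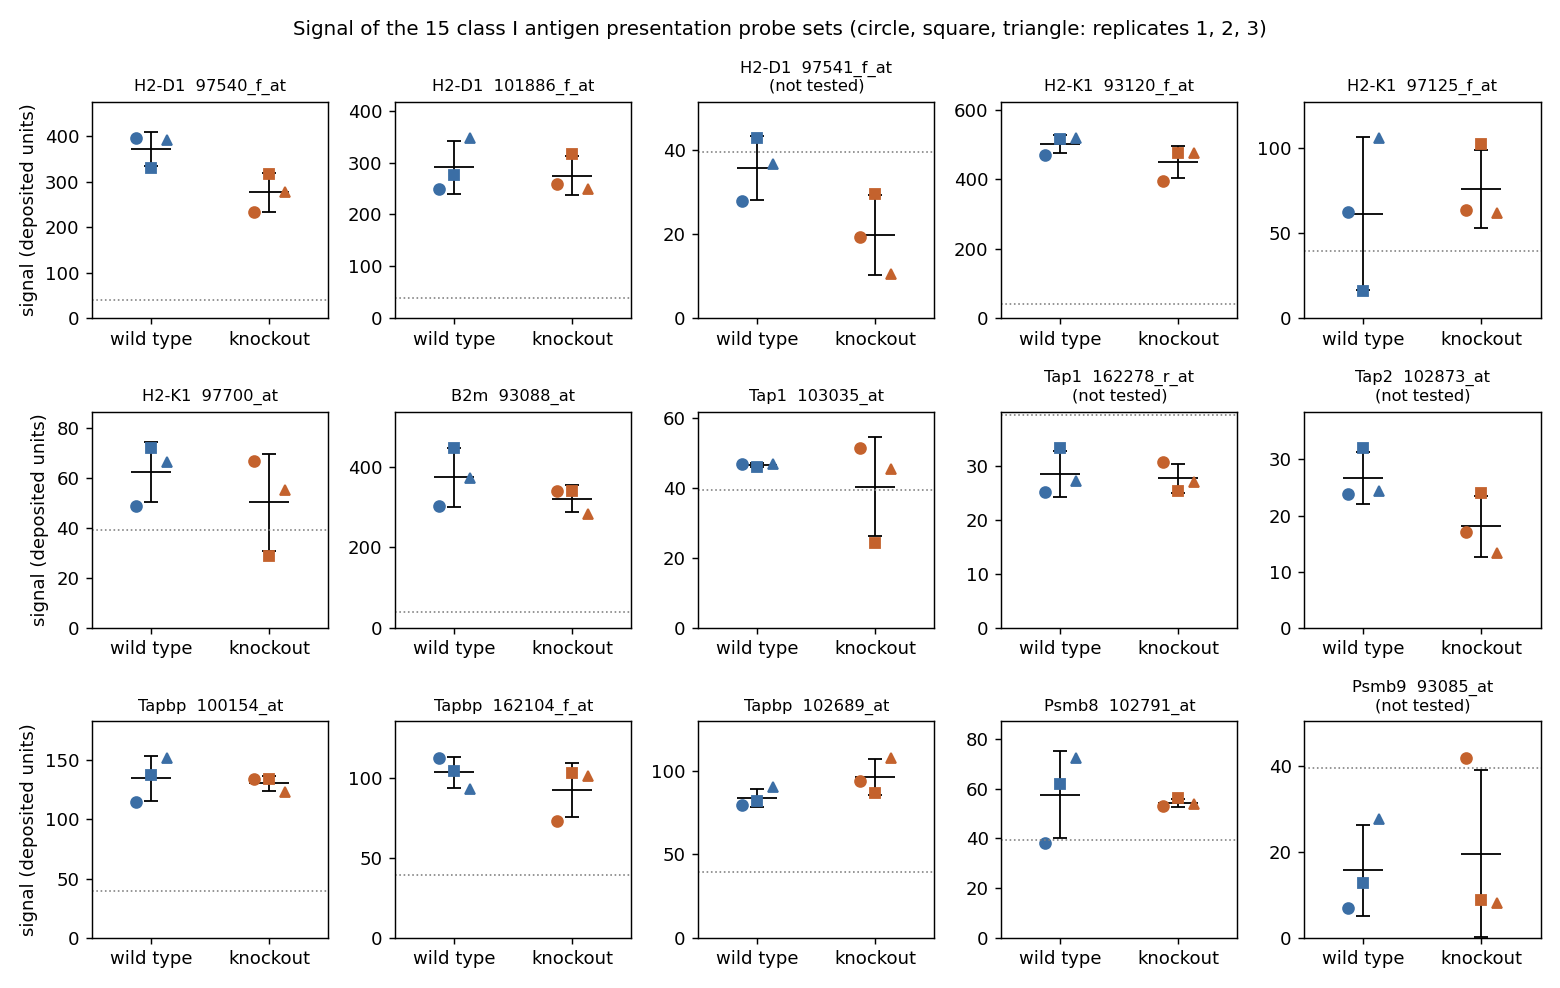
Signal of the 15 member probe sets on each array, in the deposited units and on a linear axis from 0. Points are single arrays, the horizontal bar and whiskers are the mean ± SD of 3 arrays, and the dotted line is the filter at 39.4. The groups separate without overlap in 97540_f_at of H2-D1 and overlap in the other 14.

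H2-D1, the heavy chain encoded at the D end of the class I region, had the largest difference in size relative to its error among the members. Its probe set 97540_f_at gave 396.0, 328.7 and 391.6 on the wild-type arrays and 233.1, 317.6 and 277.3 on the knockout arrays. The highest knockout reading lay just under the lowest wild-type one, so the groups did not overlap, as was the case, with the knockout lower, for 5.23% of all probe sets tested. The means were 372.1 ± 37.6 and 276.0 ± 42.3 (SD, n = 3 each). The log2 difference, knockout minus wild type, was -0.44 (SE 0.15), with a 95% interval of -0.77 to -0.11 before any adjustment. In limma the unadjusted p was 0.0150 and the adjusted p over all probe sets 0.923. The exact permutation p was 0.1, the smallest that 3 against 3 arrays can give. Within the larger title set (4 arrays) the log2 difference was -0.63, and between the other 2 it was -0.050.

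The other H2-D1 probe sets did not both show this difference. Probe set 101886_f_at gave 248.5, 276.8 and 347.9 on the wild-type arrays and 258.0, 317.5 and 248.6 on the knockout arrays. Its groups overlapped, with a log2 difference of -0.08 (95% interval -0.44 to 0.28; adjusted p = 0.984 in limma), and without wild-type replicate 3 the value turned to 0.058. Probe set 97541_f_at, which passed 39.4 on 1 array only, gave 27.7, 42.8 and 36.5 on the wild-type arrays and 19.2, 29.5 and 10.4 on the knockout arrays. Its knockout readings were mostly the lower ones, but knockout replicate 2 lay above wild-type replicate 1 (exact permutation p = 0.2).

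H2-K1, the heavy chain at the other end of the region, was measured by 3 probe sets that disagreed. The brightest, 93120_f_at, gave 471.1, 515.9 and 519.8 on the wild-type arrays and 395.7, 476.3 and 475.4 on the knockout arrays. Knockout replicate 1 was lowest and the other knockout readings lay just above wild-type replicate 1. The log2 difference was -0.17 (SE 0.12), with a 95% interval of -0.43 to 0.10 (adjusted p = 0.958 in limma), and -0.077 without knockout replicate 1.

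Probe set 97125_f_at of H2-K1 gave 62.7, 15.7 and 106.1 on the wild-type arrays and 63.6, 102.7 and 61.8 on the knockout arrays. Its log2 difference of 0.65 (95% interval -0.67 to 1.97; adjusted p = 0.958 in limma) turned to -0.14 without wild-type replicate 2, the single reading below the filter, and stood at 1.24 without wild-type replicate 3. Probe set 97700_at, the H2-K1 probe set without the family suffix, gave 48.8, 72.2 and 66.4 on the wild-type arrays and 66.8, 28.7 and 55.2 on the knockout arrays. Here wild-type replicate 2 was the highest reading and knockout replicate 2 the lowest, the opposite of their places in 97125_f_at, where they were lowest and next to highest. The log2 difference of 97700_at was -0.38 (95% interval -1.11 to 0.35; adjusted p = 0.958 in limma) and -0.021 without knockout replicate 2.

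B2m, the light chain without which heavy chains are unstable at the cell surface, had 1 probe set and no paralog among the members. It gave 302.0, 448.2 and 372.0 on the wild-type arrays and 339.3, 341.4 and 283.1 on the knockout arrays. Wild-type replicates 2 and 3 lay above every knockout reading and wild-type replicate 1 below 2 of the 3. The means were 374.1 ± 73.1 and 321.3 ± 33.1 (SD, n = 3 each). The log2 difference was -0.21 (95% interval -0.57 to 0.16; adjusted p = 0.958 in limma), and without wild-type replicate 2 it was -0.066.

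**Figure D2:**
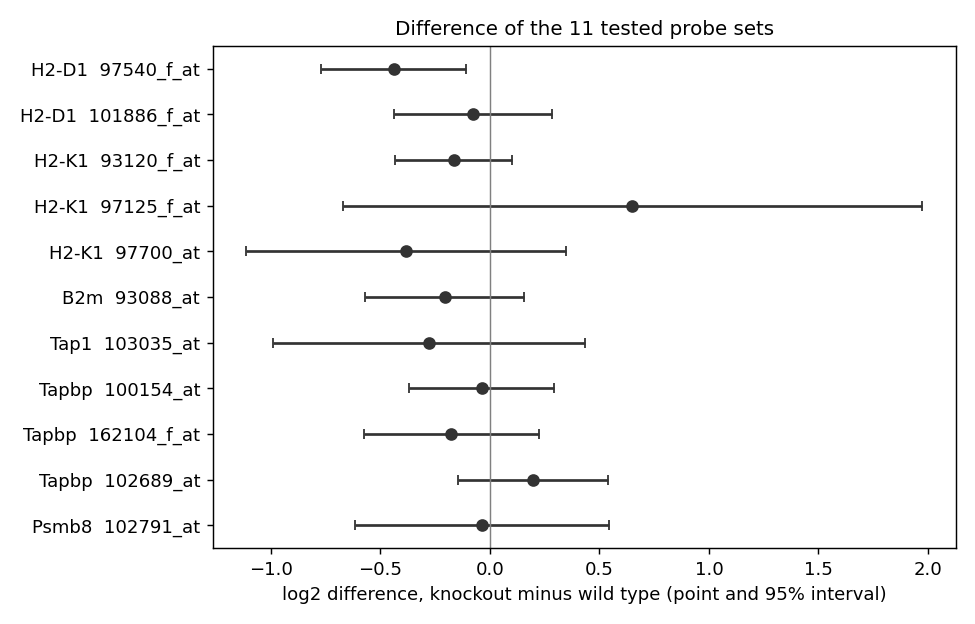
Log2 difference, knockout minus wild type, of the 11 tested member probe sets (points) with 95% intervals from limma, not adjusted for the number of probe sets. The interval of 97540_f_at of H2-D1, -0.77 to -0.11, leaves out 0 and the other 10 contain it, and the probe sets of H2-K1 and of Tapbp lie on both sides of 0.

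The peptide transporter was close to the filter. Tap1, the subunit encoded beside Psmb9, gave 46.8, 45.9 and 46.9 on the wild-type arrays and 51.5, 24.3 and 45.3 on the knockout arrays on 103035_at. Apart from knockout replicate 2 the readings of both groups lay between 45.3 and 51.5. The log2 difference of -0.28 (95% interval -0.99 to 0.43; adjusted p = 0.963 in limma) came to 0.054 without that array. The other Tap1 probe set, 162278_r_at, read 25.1 to 33.3 in wild type and 25.3 to 30.6 in the knockout, below the filter on all 6 arrays. Tap2, the partner subunit, gave 23.8, 32.1 and 24.3 on the wild-type arrays and 17.1, 24 and 13.3 on the knockout arrays. These readings were also below the filter on all arrays, and they overlapped by a narrow margin, with knockout replicate 2 above wild-type replicate 1 (exact permutation p = 0.2).

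Tapbp encodes tapasin, which bridges the class I molecule and the transporter, and its 3 probe sets gave differences of either sign. The brightest, 100154_at, gave 114.8, 137.3 and 152.4 on the wild-type arrays and 134.5, 133.9 and 123.4 on the knockout arrays. Its log2 difference was -0.04 (95% interval -0.37 to 0.29; adjusted p = 0.996 in limma), and it turned to 0.029 after scaling to a common median, to 0.056 without wild-type replicate 3 and to 0.0029 without knockout replicate 3. The knockout readings lay inside the wild-type range. Probe set 162104_f_at read 93.2 to 112.9 in wild type and 72.9 to 103.0 in the knockout (log2 difference -0.18, 95% interval -0.58 to 0.22), with a difference of -0.013 without knockout replicate 1. Probe set 102689_at read 79.5 to 90.1 and 86.9 to 108.0 (log2 difference 0.20, 95% interval -0.15 to 0.54, and 0.11 without knockout replicate 3). Each of these 2 had an adjusted p of 0.958 in limma.

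Psmb8 and Psmb9 encode the immunoproteasome subunits that take the places of Psmb5 and Psmb6. Psmb8 gave 38.2, 62.0 and 72.5 on the wild-type arrays and 52.9, 56.1 and 53.9 on the knockout arrays. The wild-type readings spread on both sides of the knockout ones, and the log2 difference was -0.03 (95% interval -0.61 to 0.55; adjusted p = 0.996 in limma). It changed sign with the array left out, from -0.30 without wild-type replicate 1 to 0.16 without wild-type replicate 3, and after quantile normalization (0.035), cyclic loess (0.030) and median scaling (0.032). Psmb9 gave 6.9, 12.6 and 27.5 on the wild-type arrays and 41.9, 8.7 and 8.1 on the knockout arrays, so that 1 reading passed the filter and 1 lay under the floor. At this level a group difference was not measurable.

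Whether the immunoproteasome subunits changed unlike the standard ones was compared as the log2 ratio of each pair on the same array. The knockout minus wild-type difference of that ratio was 6.2e-05 for Psmb8 over Psmb5 (exact permutation p = 1.0) and -0.15 for Psmb9 over Psmb6 (exact permutation p = 0.8). For Psmb10 over Psmb7, the remaining pair, it was -0.12 (exact permutation p = 0.4). Adjusted over the 3 pairs, each exact permutation p was 1.0. The first ratio had an SD of 0.60 among the wild-type arrays and 0.12 among the knockout ones, and its difference ran from -0.34 to 0.19 with single arrays left out. The ratio of Psmb9 rests on readings near the floor, and its difference ran from -0.94 without knockout replicate 1, the array with the 1 Psmb9 reading above the filter, to 0.33 without wild-type replicate 3. The standard 20S subunits themselves had 12 of 14 members higher in the knockout and a median log2 difference of 0.09. Psmb6 was the 1 of these 14 whose groups did not overlap, with 353.5, 334.7 and 353.4 on the wild-type arrays and 390.1, 412.4 and 388.9 on the knockout arrays (adjusted p = 0.937 in limma), where 5.45% of all probe sets tested had the knockout higher without overlap.

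As a group, 9 of the 11 tested member probe sets had a lower mean log2 value in the knockout, where 53.2% of all probe sets tested did, and the median log2 difference was -0.17, beside -0.02 over all. With the brightest probe set of each gene, 6 of 6 genes were lower and the median was -0.19. This covers the probe sets that passed the filter, not all members, and the probe sets of a gene share their target. The count depended on the arrays used and on the normalization. Without wild-type replicate 3, 6 of 11 probe sets and 4 of 6 genes were lower, and over the larger title set 7 of 11 and 4 of 6. Without wild-type replicate 2, knockout replicate 2 or knockout replicate 3, 5 of 6 genes were lower. The same count held after quantile normalization and after cyclic loess. The median of the 11 ran from -0.21 without wild-type replicate 1 to -0.058 without knockout replicate 2. After scaling to a common median, the median over all probe sets stood at 0.05 with 39.3% of them lower. The members then had 7 of 11 probe sets and 4 of 6 genes lower, and the median of the 11 was -0.10.

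**Figure D3:**
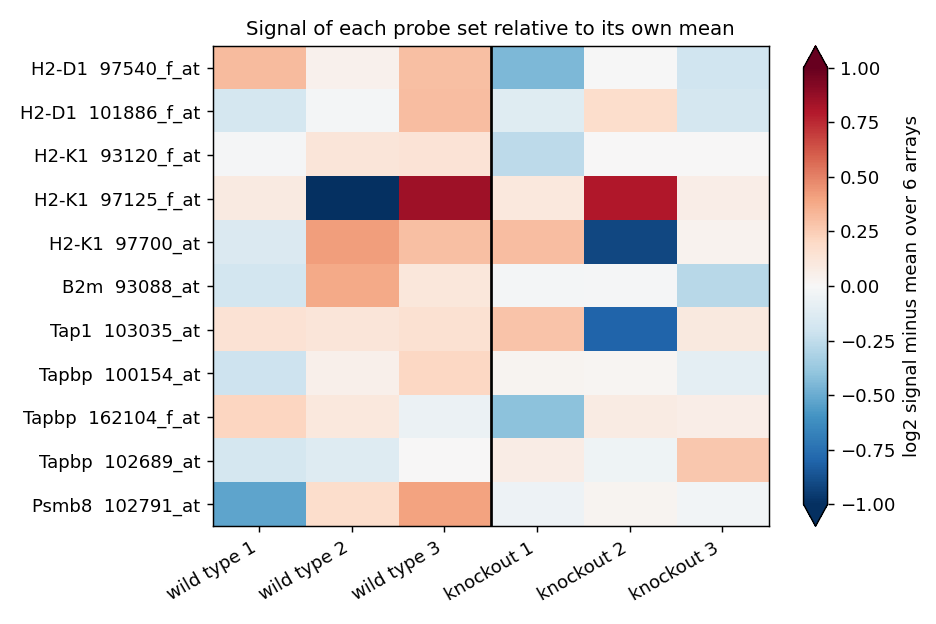
Log2 signal of each of the 11 tested member probe sets on each array, minus its own mean over the 6 arrays (colour, cut at -1 and 1). Red is above and blue below the mean of that probe set. Wild-type replicate 3 holds the highest reading of 5 probe sets, and replicate 2 of both groups holds the deepest blue cells.

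Read by array, the members did not split cleanly by genotype. With 1 probe set per gene, all 6 genes lay above their own mean on wild-type replicates 2 and 3. On wild-type replicate 1, 2 of the 6 did, as on knockout replicates 1 and 3, and 3 did on knockout replicate 2. The mean of the 6 centred log2 values was -0.08, 0.15 and 0.22 on the wild-type arrays and -0.08, -0.13 and -0.08 on the knockout arrays. Wild-type replicate 1 (-0.077) thus lay just above the highest knockout array, knockout replicate 1 (-0.079). Wild-type replicate 3 held the highest reading of 5 of the 11 member probe sets, beside 16.3% of all probe sets tested, and of 6 of the 7 tested class II antigen genes, which macrophages and dendritic cells express. Of the 10 tested macrophage markers, 4 were highest there.

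The genes with the array pattern most like that of the members were sought among 4793 genes outside the lists. Genes between H2-K1 and H2-D1, described below, stayed among them unless another list held them. The measure was the Pearson correlation with the mean of the 6 centred member genes over 6 arrays, given as a description without a p because the highest of many were taken. Plac8 stood at 0.987, the lysosomal glucosidase Gaa at 0.983, Tmx1, a membrane-bound thioredoxin-like protein of the endoplasmic reticulum, at 0.946, Tgoln1, a trans-Golgi protein, at 0.945 and Fbxo21 at 0.944. Gaa gave 517.6, 638.8 and 666.2 on the wild-type arrays and 505.1, 507.3 and 537.5 on the knockout arrays, again with wild-type replicate 1 near the knockout arrays.

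The rest of the class I pathway was read from lists of other heavy chains, of peptide supply and loading, and of the regulators. None of their members passed the adjusted threshold. Of 24 other class I and class I-like heavy chains 15 were on the array and 10 were tested, with 9 lower in the knockout and a median log2 difference of -0.16. Among them H2-Q4 gave 64.6, 116.5 and 158.9 on the wild-type arrays and 75.7, 91.2 and 75.5 on the knockout arrays (log2 difference -0.40, SE 0.29). H2-M3, which presents formylated peptides, read 75.2 to 80.5 and 55.2 to 78.4 (-0.26), and H2-M10.1 71.9 to 91.5 and 62.5 to 78.9 (-0.21). Mr1, which presents metabolites to innate-like T cells, was the 1 with a higher mean in the knockout (0.34). All 10 had groups that overlapped, and several are paralogs of H2-D1 and H2-K1, so they may share signal with the members.

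The partners that make and load peptides had 5 of 13 tested members higher, 8 lower and a median of -0.02, with groups that overlapped for each of the 13. The chaperone Canx, which holds new heavy chains, had a log2 difference of -0.07, and Pdia3, its disulfide isomerase partner in the loading complex, -0.26. Pdia3 gave 63.0, 45.2 and 68.1 on the wild-type arrays and 42.6, 65.4 and 40.5 on the knockout arrays. Psmb10, the remaining immunoproteasome subunit, stood at -0.03 and the proteasome activator subunit Psme1 at 0.05, and Psme3, of a nuclear activator, at 0.09. The peptidase Thop1 stood at 0.14, the translocon subunits Sec61a1 and Sec61b at 0.14 and -0.02, and the chaperone Hspa5 at -0.10. Ganab and Uggt1, which trim and restore the glucose that Canx reads, stood at 0.08 and -0.02, Bcap31 at -0.19 and Sec22b at -0.15. Calr, calreticulin of the loading complex, read 2.3 to 15.9 and was not tested.

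Of 17 tested regulators and interferon signalling genes, 12 had a lower mean in the knockout, with a median of -0.09, and 2 were lower without overlap, beside 5.23% of all probe sets tested. Irf1, which binds the interferon elements of class I genes, gave 102.8, 111.2 and 109.9 on the wild-type arrays and 79.4, 103.6 and 85.6 on the knockout arrays. Knockout replicate 2 overlapped with wild type by less than 1 unit (log2 difference -0.28, SE 0.15). Socs3, a feedback inhibitor of cytokine receptors, gave 89.5, 101.6 and 105.1 on the wild-type arrays and 71.3, 80.8 and 77.4 on the knockout arrays (-0.37), and Irf3 60.6, 73.5 and 74.0 and 60.3, 37.9 and 59.3 (-0.43). Both were lower without overlap, Irf3 by 60.6 against 60.3. Irf9, which carries type I interferon signals to DNA, had a log2 difference of -0.51 with groups that overlapped. These 4 had the smallest unadjusted p of their list, with adjusted p of 0.923 to 0.946 in limma.

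The interferon-responsive genes gave no common direction. Of 38, 30 were on the array and 12 were tested, with 5 higher, 7 lower and a median of -0.07. Ifi35 stood at 0.36, Trim21 at -0.32, Gbp7 at -0.29 and Ifitm3 at -0.13, with groups that overlapped in each. Those that were not tested ranged from readings below the floor on all 6 arrays, as for Usp18 (2.7 to 5.7), to readings above it on all 6. The latter included Rsad2 (27.6 to 38.4), Ifit3 (18.1 to 32.5), Irgm1 (25.4 to 47.5) and Gbp2 (32.2 to 58.5), whose groups overlapped. They also included Ifitm1, higher without overlap (13.4 to 21.3 in wild type and 21.4 to 29.3 in the knockout). Usp18 was lower without overlap, but only in readings below the floor. Over all probe sets tested, 5.45% were higher and 5.23% lower without overlap. Ifitm1 and Usp18 are not among those, and the share among probe sets that missed the filter was not counted. The list's median was 0.058 without knockout replicate 1.

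Genes lying between H2-K1 and H2-D1 on chromosome 17 in the RefSeq gene order tend to be inherited together with the heavy chains. Of 37 such tested genes that are not members, 23 were lower and 14 higher, with a median of -0.05 (0.019 after scaling to a common median). The 4 class II genes among them set aside, 19 of 33 were lower and the median was -0.02. Of the 37, 3 were lower without overlap (Skiv2l, Lsm2 and Lta) and 1 higher (Tnxb), beside 5.23% and 5.45% of all probe sets tested. Skiv2l, an RNA helicase, gave 45.5, 78.1 and 64.1 on the wild-type arrays and 41.3, 43.2 and 36.9 on the knockout arrays, and Tnxb, a matrix protein, 233.1, 309.7 and 301.4 and 338.1, 362.9 and 315.6. Nelfe stood at 0.66 and H2-Eb1 at -0.42. None of the 37 passed the adjusted threshold.

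**Figure D4:**
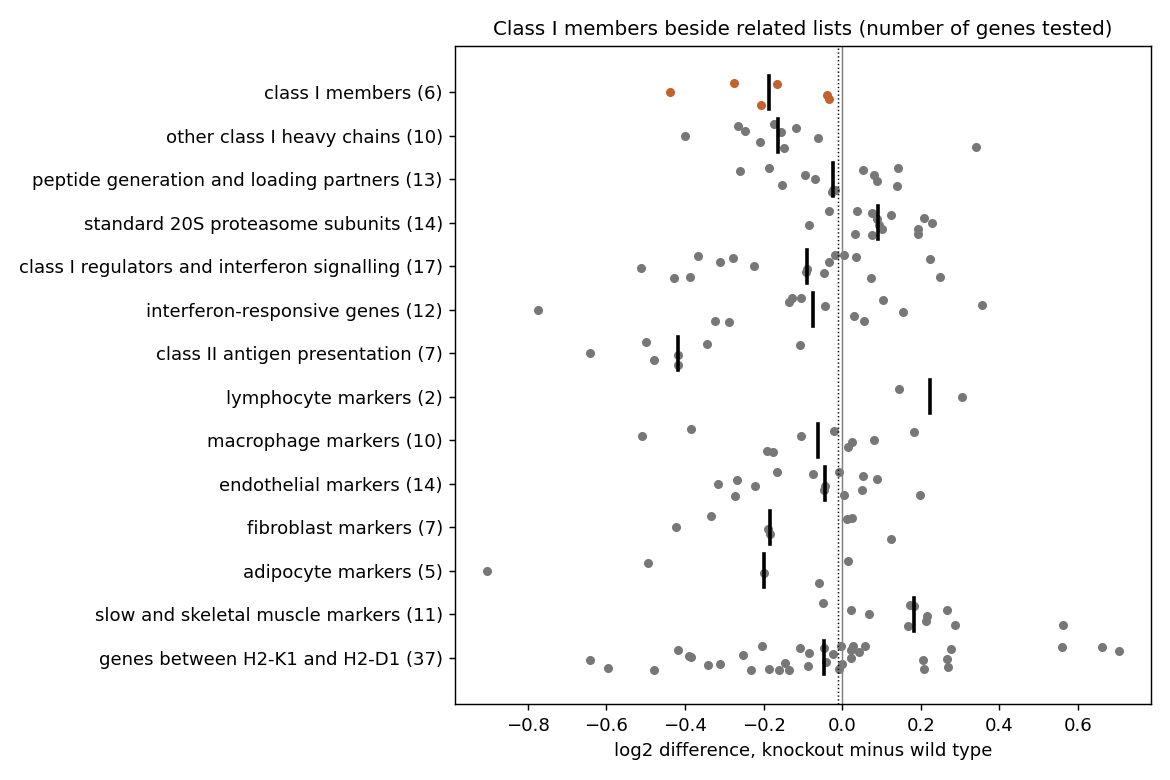
Log2 difference, knockout minus wild type, of each tested gene (points, 1 probe set per gene) for the class I members (orange) and for the related lists (grey), with the number of genes tested in parentheses. Black bars are medians and the dotted line is the median of all genes tested. The 6 member genes lie between -0.44 and -0.03, with a median of -0.19, and the class II list is the furthest to the left, at -0.42.

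Cell types that carry class I were read from their markers. Their part in the readings of the members was not tested. Each sum below adds signals of different probe sets, so the brightest weigh most. Such a sum is no measure of the amount of a cell type. The summed signal of 14 endothelial markers was 2566 to 2745 in wild type and 2479 to 2813 in the knockout. Of these 14, 9 had a lower mean in the knockout, 1 of them without overlap, beside 5.23% of all probe sets tested. The 15 macrophage markers on the array summed to 1284 to 1728 and 1186 to 1428, with wild-type replicate 3 highest. Of the 10 that were tested, 6 were lower, 1 of them without overlap, beside the same 5.23%. The class II genes had 7 of 7 tested members lower and a median of -0.42, which was -0.17 without wild-type replicate 3, -0.64 without wild-type replicate 2 and -0.66 over the larger title set. Cd74, the class II invariant chain, gave 281.6, 255.6 and 454.6 on the wild-type arrays and 298.2, 233.4 and 230.2 on the knockout arrays. Of 16 lymphocyte markers 2 passed the filter, Cd4 (12.8 to 58.5 in wild type and 21.5 to 51.0 in the knockout) and the B cell gene Ms4a1 (40.5 to 59.2 and 44.3 to 56.3). Of the defining genes of T and natural killer cells, Cd3d, Cd8a, Cd8b1 and Ncr1 lay at or below the floor on all 6 arrays, while the granzymes Gzma (11.5 to 29.2) and Gzmb (9.7 to 26.4) lay above it on all. Other T cell genes lay at or below the floor on only part of the 6 arrays. Cd3e did so on 3, Cd3g on 4, and the 2 probe sets of Cd247 on 3 (102287_at) and 1 (102288_at). Below the filter, Klrd1, a natural killer cell receptor, was lower without overlap (12.3 to 17.8 and 3.9 to 12.2) and Cd79b, of the B cell receptor, higher without overlap (6.4 to 9.2 and 14.4 to 27.9). Each had 2 of its 6 readings at or below the floor. Over all probe sets tested, 5.23% were lower and 5.45% higher without overlap. Klrd1 and Cd79b are not among those, and the share among probe sets that missed the filter was not counted. The summed signal of the 16 was 154.9 to 283.8 in wild type and 221.2 to 239.9 in the knockout. The 6 adipocyte markers summed to 467.7 to 772.4 in wild type and 457.0 to 507.2 in the knockout, with wild-type replicates 2 and 3 above every other array, as for the members. The 7 fibroblast markers summed to 4442 to 5555 and 4668 to 5055. Of these 7, 4 were lower and 3 higher, with a median log2 difference of -0.18. Of the 5 adipocyte markers tested, 4 were lower and 1 higher, with a median of -0.20. Both medians lay near the -0.19 of the 6 member genes. The 11 muscle markers had 10 higher in the knockout, where 2983 of all 6369 probe sets tested were. Their median was 0.18, though -0.033 after quantile normalization. Of these markers 4 were higher without overlap, beside 5.45% of all probe sets tested. Wild-type replicate 1 held the lowest reading of 9 of the 11, beside 13.6% of all probe sets tested.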

How the data were processed

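The samples were 6 arrays, 3 of wild-type and 3 of knockout soleus. The deposited values are the authors' signal intensities on a linear scale, with no detection calls. No label or file header names the software. With 2% trimmed at each end, array means were 100.07 to 100.08, so the scaling was kept. The array medians were still lower in the knockout, at 36.8 to 39.3 against 39.8 to 40.5 in wild type. Gene symbols came from the array's annotation table, and a look-up in RefSeq GRCm38.p6 changed 0.

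Values under the 20th percentile (7.8) were set to it and taken to log2. Probe sets above the median (39.4) on at least 3 arrays were tested, 6369 of 12488. The knockout was compared with wild type in limma 3.58.1 under R 4.3.3 (eBayes with an intensity trend, two-sided, Benjamini-Hochberg over all tested). The steps were tested on simulated data. Exact permutation tests were two-sided. Figures used matplotlib 3.10.9.

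Members and lists were chosen with earlier results of these data known. Every member probe set is named. Of other lists, the 4 genes with the smallest unadjusted p could be named, as well as all tested peptide partners, the 3 standard subunits of the pairs and the 5 genes most like the members. Calr, Socs1, Usp18, Rsad2, Ifit3, Irgm1, Gbp2, Ifitm1, Lsm2, Lta, Cd3d, Cd3e, Cd3g, Cd247, Cd8a, Cd8b1, Ncr1, Gzma, Gzmb, Klrd1 and Cd79b were named after their values were seen. The replicate number, given in deposit order, matches adjacent title numbers. The labels do not say that these pair samples. Alternatives were other normalizations, floors, filters, eBayes settings, array weights, blocks, and leaving out arrays. The number of arrays limits the precision.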

Additional observations from a re-analysis of the deposited data

How the results depend on the processing

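Of the 11 tested member probe sets, 0 passed an adjusted p of 0.05 under any alternative in which they were tested: 6 of them under all 19, and 5 (H2-K1 97125_f_at and 97700_at, Tap1 103035_at, Tapbp 102689_at and Psmb8) under 18, since the filter at the 70th percentile left them out. The lowest adjusted p was 0.483, for 97540_f_at of H2-D1, whose log2 difference ran from -0.63 (the 4 arrays of the larger title set) to -0.32 without knockout replicate 1. The sign changed for Psmb8 after quantile normalization (0.035), median scaling (0.032), cyclic loess (0.030), with array weights (0.056) and over the larger title set (0.021), and for Tapbp 100154_at after median scaling (0.029). In the larger title set it also changed for H2-K1 97125_f_at (-0.38), H2-K1 97700_at (0.093) and Tap1 103035_at (0.044). With single arrays left out, the values ran from -0.30 to 0.16 for Psmb8, -0.15 to 0.056 for Tapbp 100154_at, -0.19 to 0.058 for H2-D1 101886_f_at, -0.14 to 1.24 for H2-K1 97125_f_at and -0.49 to 0.054 for Tap1. With adjacent title numbers as a replicate block the member values stayed the same and 0 members passed, while 1 probe set of all passed. These numbers did not show as pairs: same-numbered arrays had correlations of deviations from the group mean of -0.0052, 0.035 and -0.0029. Over all probe sets, 1 passed without the filter and 0 or 1 with single arrays left out. At an unadjusted p under 0.05 there were 619 without the filter, 197 with the filter at the 70th percentile, 532 with array weights, 514 over the larger title set, and 194 to 422 with single arrays left out. The medians of other lists moved as follows. Other heavy chains stood at -0.25 with the stricter filter. Peptide partners stood at 0.033, 0.043 and 0.025 after quantile normalization, median scaling and cyclic loess, at 0.053 with array weights, at 0.045 over that set and from -0.063 to 0.059 with single arrays left out. Standard proteasome subunits stood at 0.16 after median scaling and 0.041 after cyclic loess. Interferon-responsive genes stood at 0.030 with the stricter filter and from -0.12 to 0.058 with single arrays left out. Fibroblast markers stood at -0.067 over that set, and muscle markers at -0.033 after quantile normalization and 0.0090 after cyclic loess. The ratio difference of Psmb10 over Psmb7 was 0.053 over that set. The cause of these changes was not tested. The median SE of a log2 difference was 0.18.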
